A study of Mus musculus with 2 samples.

Results

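The loci described here are stretches of transcribed mouse DNA that carry no gene name, overlap no named locus on either strand, and lie at most 10000 bp from the nearest named one on their chromosome. Of 23672 loci in the table, 1614 (6.82%) met these conditions. The other unnamed loci either overlapped a named locus (9236) or lay farther away (2040), and 10782 loci carried a gene name. Each flanking locus was set beside its nearest named locus, called its neighbour, and the question was whether the ratio between the libraries at the flanking locus followed that of the neighbour.

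The 2 libraries hold poly(A) RNA of thigh skeletal muscle from B6C3F1 mice of 26 months, 1 from mice on a control diet and 1 from mice under calorie restriction (CR). The CR mice had eaten about 40% fewer calories for 25 months, on a diet enriched to keep protein, vitamins and minerals per body weight near those of the controls. Reads were 76 bp long, paired, and came from fragments of about 200 nt made from 10 µg of total RNA, and the library kit keeps no record of strand, as far as the protocol goes. The number of mice behind each library is not stated in the labels. With 1 library per diet there is no replicate, so no test or p-value is given, and every difference is one between these libraries.

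Values are FPKM, fragments scaled by transcript length and by the mapped fragments of the library. The scaling did not put short loci on an equal footing with longer ones. The lowest control value above 0 was 88.6 FPKM for flanking loci of up to 200 bp. It was 1.07 FPKM for those longer than 800 and up to 1000 bp. On this table's scale FPKM run high and the number of reads behind them is unknown. A listed 0 may stand for an estimate that failed, since Ttn, the giant sarcomere protein, was listed at 0 in both libraries, so no fold is given for a locus at 0. All 10 skeletal muscle markers were above 0 in both libraries and summed to 986592 FPKM in control and 1397510 FPKM in CR. Acta1, skeletal actin, had 372424 FPKM in control and 354522 FPKM in CR. Atp2a1 was also lower in CR, with 96498 and 84736 FPKM, and the other markers were higher. The largest ratios were at Tnni1 (408 and 5480 FPKM) and Myh7 (8953 and 81978 FPKM), so the libraries differed in muscle genes.

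Transcripts outside annotated genes arise in several known ways. RNA polymerase II continues past the cleavage and polyadenylation site of a gene, alternative polyadenylation sites extend the last exon, and many promoters also start transcripts upstream, often in the opposite direction. An assembler that finds no splice junction in unstranded reads cannot assign a strand, and it opens a separate locus wherever coverage breaks off before reaching an annotated exon.

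The sequences below belong to neighbours on which later results turn. The mature miRNAs encoded at miRNA neighbours are shown with the seed, bases 2 to 8, in capitals, since the seed pairs with target mRNAs. RefSeq (GRCm38.p6) sequences were matched for 9 of 14 miRNA symbols among the neighbours, and the 3 shown have different seeds. The poly(A) libraries read longer transcripts and not these mature forms.
mmu-miR-133b-3p: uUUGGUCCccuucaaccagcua
mmu-miR-30c-5p: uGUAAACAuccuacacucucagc
mmu-miR-365-3p: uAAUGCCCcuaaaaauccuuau

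The promoters of Nr4a3, Hdac4 and Hoxd8 are shown because these genes and a locus just past their ends differed past 2-fold in the same direction. Each runs from 250 bases before to 50 bases after the annotated start in RefSeq (GRCm38.p6), written along the gene's strand: chr4:48045055-48045354 on the plus strand for Nr4a3, chr1:92180292-92180591 on the minus strand for Hdac4, and chr2:74704365-74704664 on the plus strand for Hoxd8. Capitals mark matches on either strand to the searched motifs. These were the TATA box TATAAA, the cAMP response element TGACGTCA, the shorter TGACGT with which that element begins, and the GC box GGGCGG.
Nr4a3 promoter: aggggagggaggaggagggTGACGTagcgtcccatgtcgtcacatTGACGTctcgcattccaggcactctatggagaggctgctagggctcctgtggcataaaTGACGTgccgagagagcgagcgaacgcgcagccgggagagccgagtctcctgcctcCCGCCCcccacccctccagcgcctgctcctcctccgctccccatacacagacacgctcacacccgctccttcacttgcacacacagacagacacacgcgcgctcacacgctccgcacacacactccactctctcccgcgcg
Hdac4 promoter: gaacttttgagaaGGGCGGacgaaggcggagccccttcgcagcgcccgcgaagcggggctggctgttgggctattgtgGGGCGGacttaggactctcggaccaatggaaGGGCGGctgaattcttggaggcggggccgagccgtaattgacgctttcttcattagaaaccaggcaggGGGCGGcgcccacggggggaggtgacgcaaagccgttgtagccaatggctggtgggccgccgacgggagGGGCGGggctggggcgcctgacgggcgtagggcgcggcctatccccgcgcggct
Hoxd8 promoter: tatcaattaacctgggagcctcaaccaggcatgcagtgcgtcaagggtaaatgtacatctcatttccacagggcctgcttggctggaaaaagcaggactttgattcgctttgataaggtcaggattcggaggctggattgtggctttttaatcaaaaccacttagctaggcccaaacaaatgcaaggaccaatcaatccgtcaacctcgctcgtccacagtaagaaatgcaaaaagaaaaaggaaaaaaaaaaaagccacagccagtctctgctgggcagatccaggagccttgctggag

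Neither TATAAA nor the full TGACGTCA had a match in the 3 windows (0 each), against 13.6% and 1.79% of 32851 RefSeq promoters of this length that hold them. The shorter TGACGT was searched only after the full element had given no match and the Nr4a3 sequence had been read. It had 3 matches in the Nr4a3 window and 0 in those of Hdac4 and Hoxd8, and 7.51% of all promoters hold it. The still shorter half-site TGACG was not searched, so these counts do not say which windows hold half-sites. Because the letters were picked from the Nr4a3 window itself, these matches are a description of that window only. GGGCGG had 5 matches for Hdac4, 1 for Nr4a3 and 0 for Hoxd8, and 35.7% of promoters hold it.

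The flanking loci lay mostly past the ends of genes. Downstream of the neighbour, in its direction of transcription, were 1131 (70.1%), and 483 (29.9%) were upstream. Among unnamed loci beyond 10 kb the split was 939 downstream (46.1%) and 1099 upstream (53.9%). The density fell steeply with distance on the downstream side. It was 84 loci in the first 100 bp, 202 in the next 100 bp and 62 in the 100 bp after that, and between 5000 and 10000 bp it was 2.76 loci per 100 bp. In all, 348 of the downstream loci (30.8%) began within 300 bp of the gene's end and 564 (49.9%) within 1000 bp. On the upstream side 101 (20.9%) lay within 300 bp and 183 (37.9%) within 1000 bp. The upstream density was highest, at 44 loci, between 100 and 200 bp, and 2.28 per 100 bp between 5000 and 10000 bp.

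**Figure D1:**
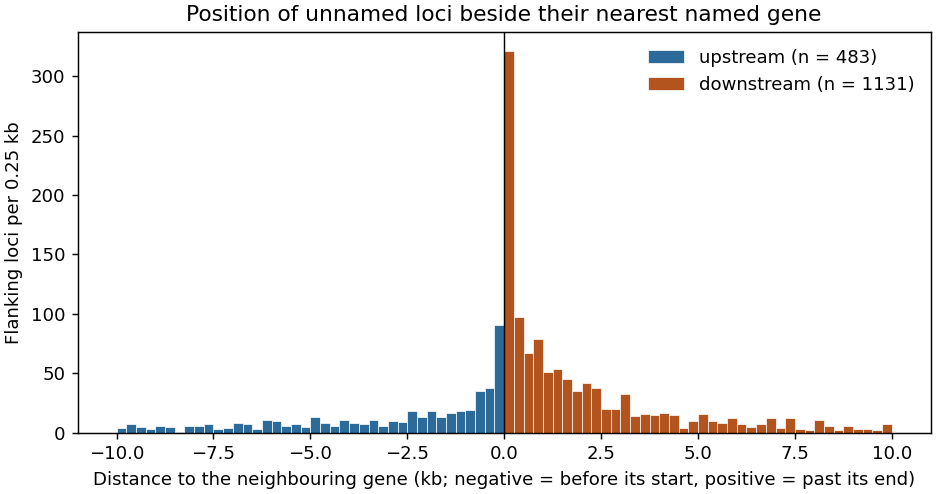
Number of flanking loci per 0.25 kb (vertical axis) by distance from the neighbouring gene in kb (horizontal axis), with upstream loci at negative and downstream loci at positive distances. The tallest bar stands just past the gene's end, and 1131 of the loci are on the downstream side.

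Most flanking loci were short and had no assigned strand. The median span was 786.5 bp (65 to 54741 bp), against 22881 bp for named loci and 267 bp for unnamed loci that overlap a named one. No strand was assigned to 1495. Of the 119 with a strand, downstream loci were on the gene's strand in 24 cases and on the opposite strand in 21, and upstream loci in 37 and 37. Of the flanking loci, 53 overlapped another flanking locus. The loci had 1073 neighbours. Of these, 739 had 1 flanking locus and 334 had more, so that 875 of the loci shared their neighbour with another. Spag9, a scaffold protein of the JNK pathway, had the most (11), followed by Ttc33 (8). The distance limit of 10000 bp fell in a continuous range. The 34 loci between 9000 and 10000 bp had a median level of 45.2 FPKM and the 28 between 10000 and 11000 bp one of 38.8 FPKM.

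Genes with a flanking locus close to their end were often annotated as longer in a later gene set than in this table. The length of the gene in GENCODE vM21 (GRCm38) was compared with the span of the named locus, by symbol and with no coordinates of that build, and 99.03% to 99.47% of symbols matched. Of 513 neighbours with a downstream locus within 1000 bp, 353 (68.8%) were longer in the later annotation by at least 100 bp, and 345 (67.3%) by at least the distance to the flanking locus. Of 376 neighbours with a downstream locus farther off, 212 (56.4%) were longer by at least 100 bp. The share longer by at least 100 bp was 119 of 351 (33.9%) for neighbours with an upstream locus and 3097 of 9429 (32.8%) for named loci without any flanking locus. The groups of neighbours overlap. A gene with near and far downstream loci, or with loci on both sides, counts in each group it belongs to. Longer by at least the distance to the flanking locus were 170 of the 376 (45.2%) and 68 of the 351 (19.4%). A short distance is reached more easily, so these shares and the 67.3% are not on an equal footing. The length alone does not say at which end a gene was extended, and genes with a later length shorter by at least 100 bp made up 21.2% of the first group.

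Levels at flanking loci were low. The median over loci of the mean of both libraries was 30.3 FPKM, against 226 FPKM for named loci, 100.7 FPKM for unnamed loci beyond 10 kb and 61.4 FPKM for those overlapping a named locus. Spans differ between these groups, so their levels are not on an equal footing. A mean under 100 FPKM was found for 1344 flanking loci, and 88 reached 300 FPKM. Where locus and neighbour were both above 0 in both libraries (863 pairs), the level of the flanking locus was 25.4% of the neighbour's at the median.

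Many flanking loci were listed at 0 in the CR library. The number at 0 was 141 (8.74%) in control and 582 (36.1%) in CR, with 4 at 0 in both. Named loci were at 0 in 2.32% of cases in control and 4.30% in CR, and unnamed loci beyond 10 kb in 7.35% and 21.4%. The 578 loci at 0 in CR alone had a median of 28.1 FPKM in control (quartiles 21.2 and 39.4), and the 137 at 0 in control alone had a median of 43.9 FPKM in CR. The share at 0 moved with span. Of 301 loci of 401 to 600 bp, 41 were at 0 in control (13.6%, 95% Wilson interval 10.2 to 17.96) and 166 in CR (55.1%, 49.5 to 60.7). Of 163 loci longer than 2000 bp, 1 was at 0 in control (0.613%, 0.108 to 3.39) and 9 in CR (5.52%, 2.93 to 10.2). The intervals cover counting error over loci only. The part of library depth in these zeros was not tested, because the table gives no counts.

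**Figure D2:**
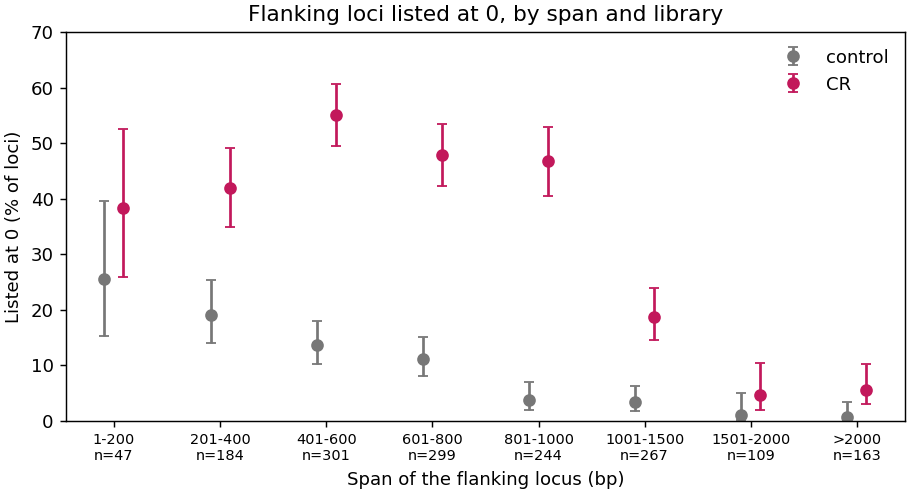
Percent of flanking loci listed at 0 (vertical axis) by span of the locus in bp (horizontal axis), in the control library (grey) and the CR library (magenta), with points for the share and bars for the 95% Wilson interval. CR lies above control in each span class, and both shares are lowest above 1500 bp.

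The count of loci past 2-fold rested largely on these zeros. With log2 ratios of CR FPKM + 1 over control FPKM + 1 and a mean of at least 1 FPKM, 1610 flanking loci were compared. Higher in CR by at least 2-fold were 219, of which 137 were at 0 in control, and lower were 611, of which 578 were at 0 in CR. Over all 22845 loci compared in this way 12.8% were higher and 22.2% lower. The median log2 ratio was -0.24. Restricted to the 895 flanking loci above 0 in both libraries, 82 were higher (9.16%) and 33 lower (3.69%), beside 11% and 11.4% of all loci above 0 in both and 6.1% and 6.82% of such named loci. Their median log2 ratio was 0.17 (quartiles -0.24 and 0.52), against 0.0012 over all loci above 0 in both and -0.02 over named ones. Unnamed loci beyond 10 kb had a median of 0.16, with 12.1% higher and 3.06% lower. Among loci above 0 in both libraries, more flanking loci were thus higher than lower. This restriction leaves out 578 loci at 0 in CR and 137 at 0 in control, so it removes loci lower in CR more often than loci higher. With loci at 0 kept, 219 were higher and 611 lower.

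**Figure D3:**
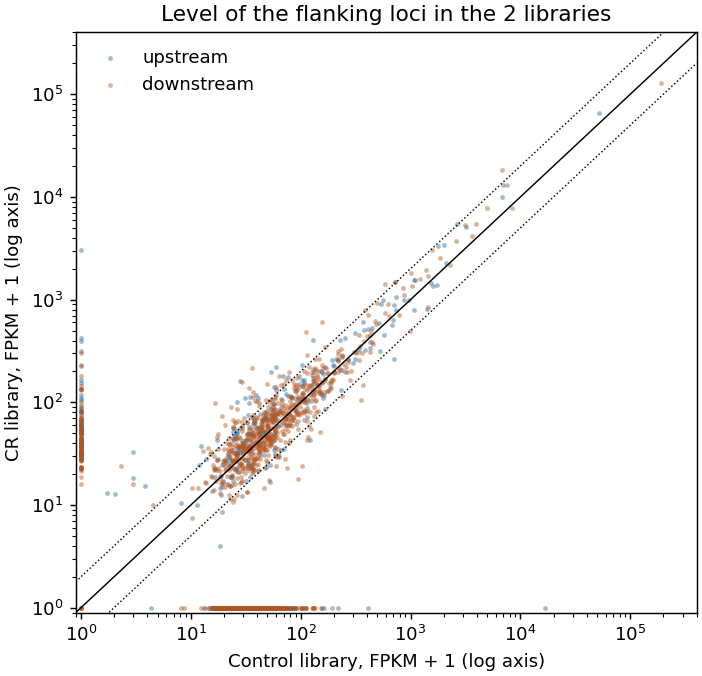
FPKM + 1 of each flanking locus in the control library (horizontal, log axis) and the CR library (vertical, log axis), upstream loci in blue and downstream loci in orange, with the line of equality and dotted lines at 2-fold. Loci listed at 0 lie along the axes at 1, with 582 along the bottom for CR, and most loci above 0 in both libraries fall between the dotted lines.

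Among loci above 0 in both libraries, the median was above 0 at several levels, after this uneven loss of loci at 0. With loci at 0 kept, it was 0.21 for 270 loci at a mean of at least 100 FPKM. For the 88 at 300 FPKM or more it was 0.32. Under a mean of 30 FPKM, 180 loci above 0 in both libraries had a median log2 ratio of 0.03. It was 0.19 for 455 loci between 30 and 100 FPKM, 0.18 for 174 between 100 and 300 FPKM, and 0.32 for 86 at 300 FPKM or more. In the last class 7 loci were higher by 2-fold or more and 1 was lower by as much. Levels in the libraries went together across the 895 loci (r = 0.92 for log2 FPKM + 1, a description over loci that share both libraries).

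The ratio of CR to control at a flanking locus was only loosely tied to that of its neighbour. Over the 863 pairs above 0 throughout, Pearson's r of the log2 ratios was 0.15 and Spearman's rank correlation 0.16, and 635 loci (73.6%) had a ratio within 2-fold of the neighbour's. These correlations describe pairs that share the libraries and, in part, the neighbour. On the downstream side the tie was closer near the gene's end. For 331 downstream loci within 1000 bp, r was 0.29, the rank correlation was 0.21, and 267 (80.7%) were within 2-fold. For the 82 of them with a mean of at least 100 FPKM, r was 0.46 and the rank correlation 0.39. For 65 downstream loci between 5000 and 10000 bp, r was -0.0032. The 238 upstream loci had an r of 0.03 and a rank correlation of 0.13, with 66.8% within 2-fold. For the 79 of them within 1000 bp, r was 0.06, the rank correlation was 0.22, and 67.1% were within 2-fold. At that limit the rank correlation was thus close to the downstream one, while r and the share within 2-fold were lower. Small upstream classes varied, with an r of -0.05 for 47 loci within 300 bp and 0.31 for 32 loci between 300 and 1000 bp. Among loci with a strand, r was 0.45 for 36 on the strand opposite to the gene and 0.12 for 42 on the same strand. The rank correlations, 0.46 and 0.28, lay closer together.

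The gene on the other side of the same locus gave a point of comparison. For 302 downstream loci within 1000 bp that had one above 0, r was 0.23 with the nearest gene and 0.0070 with the gene on the other flank, and the share within 2-fold was 81.8% and 76.2%. The share within 2-fold was thus high with either gene. Over all 802 loci with such a gene, whose median distance was 49093 bp, r was 0.12 with the nearest gene and 0.00016 with the other, while the share within 2-fold was 73.8% with either. Named loci and their nearest named locus within 10 kb (4037 pairs) had an r of 0.06 and 77.0% within 2-fold, and the 1427 of these pairs within 1000 bp had an r of 0.06 and 80.03%. Each named locus was paired with its own nearest, so genes that are nearest to each other enter in both directions. Flanking loci next to each other on the same side of 1 gene (186 pairs) had an r of 0.22, with 150 within 2-fold.

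**Figure D4:**
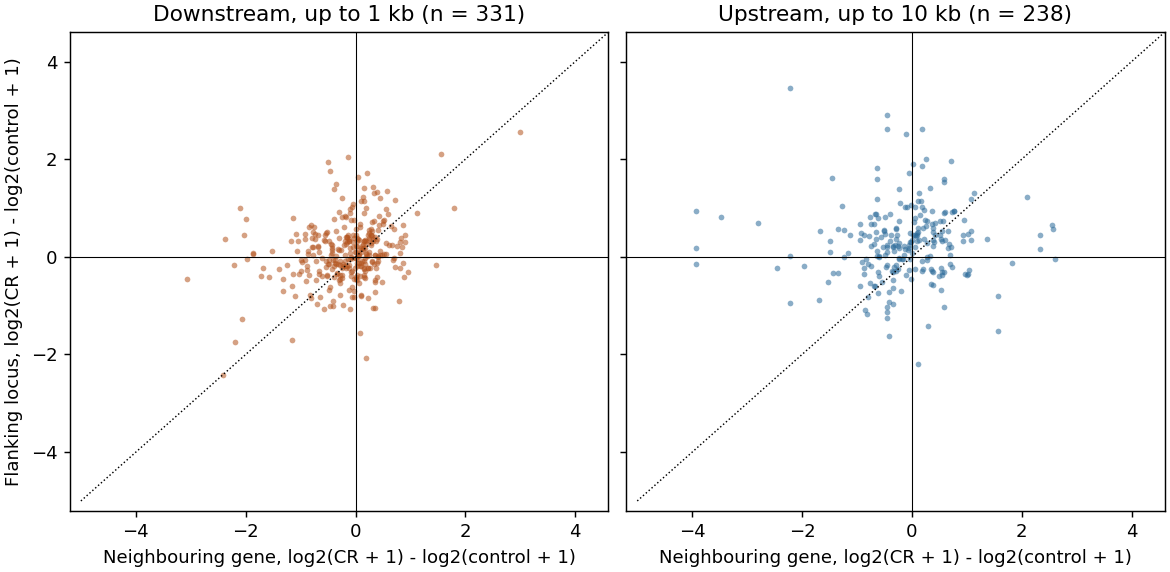
Log2 ratio of CR to control at the flanking locus (vertical) against that of the neighbouring gene (horizontal), both on the log2(FPKM + 1) scale, for 331 downstream loci within 1 kb (left) and 238 upstream loci within 10 kb (right), with a dotted line where both are equal. Pearson's r is 0.29 on the left and 0.03 on the right, over unlike distance limits. For the 79 upstream loci within 1 kb, r is 0.06 and the rank correlation 0.22, beside a rank correlation of 0.21 on the left.

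Where the neighbour itself differed past 2-fold, most flanking loci were within 2-fold, as were most flanking loci over all. Of 35 loci beside a gene at least 2-fold higher in CR, 25 had a log2 ratio above 0, 9 (25.7%) were themselves higher by 2-fold or more and 1 lower by as much, beside 9.16% higher among all flanking loci above 0 in both libraries. Of 92 beside a gene at least 2-fold lower, 51 were below 0, 6 (6.52%) were lower by 2-fold or more and 4 higher by as much, beside 3.69% lower among all of them. In all, 15 pairs were past 2-fold in the same direction and 5 in opposite directions. The loci named from here to the end of the downstream examples were picked after their values were seen, except where the rule stated under the processing takes them.

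Several same-direction pairs had their flanking locus within 1 kb of the gene's end. Past Ostn, which encodes the muscle-secreted peptide musclin, the locus at chr16:27351313-27352296 began 18 bp from the gene and stood at 15.7 FPKM in control and 97.3 FPKM in CR, a log2 ratio of 2.56. Ostn itself stood at 235 and 1882 FPKM (2.99). Both were far higher in the CR library.

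Past Nr4a3, an orphan nuclear receptor, the locus at chr4:48098132-48099275 lay 825 bp away and fell from 94.5 to 16.8 FPKM (-2.42), while the gene fell from 199 to 36.3 FPKM (-2.42). Past Hdac4, a histone deacetylase known for its part in the response of muscle to denervation, the locus at chr1:93825356-93828269 lay 200 bp away and had 352 FPKM in control and 104 FPKM in CR (-1.75), with 470 and 102 FPKM for the gene (-2.19). In both pairs locus and gene were lower in CR by similar factors. The promoters of these genes are those printed above.

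Hoxd8, a homeobox transcription factor, had flanking loci on both sides that went apart. The downstream locus at chr2:74545375-74545989, 11 bp away, had 111 FPKM in control and 481 FPKM in CR (2.11), beside 77.8 and 232 FPKM for the gene (1.56). The upstream plus-strand locus at chr2:74542997-74543444, 102 bp away, had 121 and 41.9 FPKM (-1.51). A further upstream locus, 1880 bp away, had 0 FPKM in control and 52.8 FPKM in CR. The minus-strand locus at chr2:74543063-74543182 had 0 and 313 FPKM and lies within the interval of the plus-strand locus. How reads were divided between these overlapping loci is not given. The downstream locus thus went with the gene. The plus-strand upstream locus went against it, but the minus-strand locus in the same interval was higher in CR.

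The locus 173 bp past Rps6ka5, a stress-activated kinase, had 73.8 FPKM in control and 22.0 FPKM in CR (-1.70), beside 304 and 136 FPKM for the gene (-1.16). The locus 658 bp past Zim1, an imprinted zinc finger gene, had 31.9 and 12.5 FPKM (-1.28), beside 75.9 and 17.3 FPKM (-2.07). Among upstream loci, the one 3640 bp from Myl6b, a myosin light chain gene, had 75.3 and 177 FPKM (1.22), beside 204 and 881 FPKM (2.10). The remaining same-direction pairs lay beside 3110057O12Rik, Jdp2, Klhl28, Cd28, G0s2, Prdm9 and F830016B08Rik, the last with 2 loci.

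Opposite directions were seen at distances of 102 to 6716 bp. The locus 1652 bp past Itga1, a collagen-binding integrin subunit, had 62.5 FPKM in control and 181 FPKM in CR (1.52), beside 172 and 59.4 FPKM for the gene (-1.51). The locus 1879 bp before Bace1, the beta-secretase, had 130 and 401 FPKM (1.62), beside 350 and 128 FPKM (-1.45). At Rhof, a small GTPase, the locus 4940 bp upstream had 1.97 and 31.7 FPKM (3.46), beside 31.7 and 6.02 FPKM (-2.22), and the control value there is among the lowest above 0. This locus lies within a longer upstream locus of Rhof that had 155 and 156 FPKM (0.01). Notch4 and the plus-strand upstream locus of Hoxd8 complete this group.

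**Figure D5:**
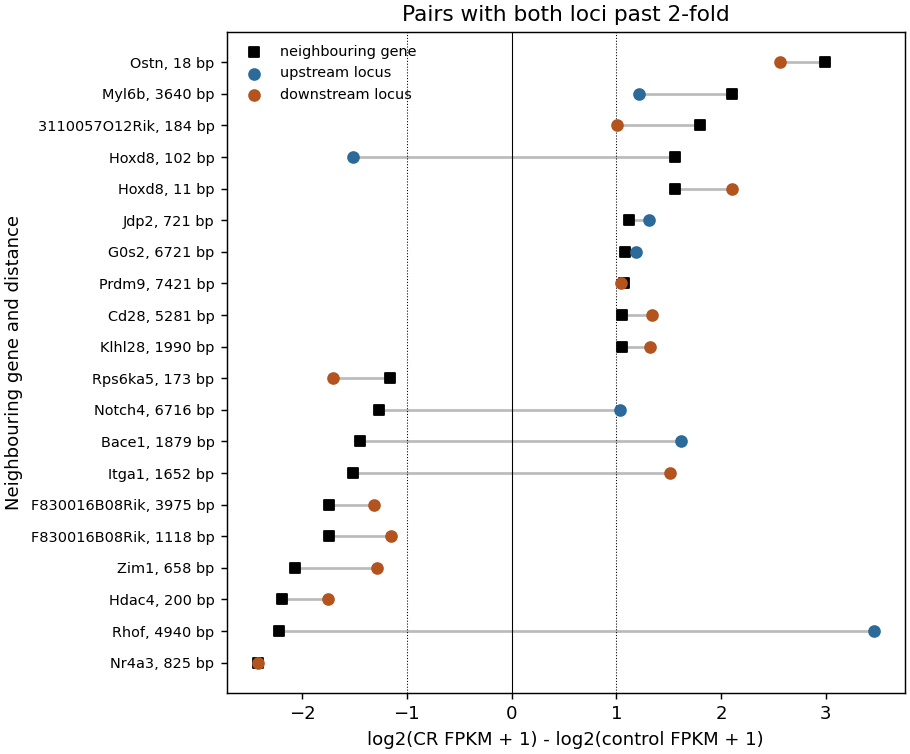
Log2 ratio of CR to control, on the log2(FPKM + 1) scale (horizontal axis), of the neighbouring gene (black squares) and its flanking locus (orange downstream, blue upstream) for the 20 pairs in which both are past 2-fold, labelled by gene and distance. In 15 pairs both symbols lie on the same side of 0, and in 5 a long line crosses it.

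Abundant loci just past a gene's end kept close to the gene in most of the examples. The locus 122 bp past Jph1, a junctophilin that ties the T-tubule to the sarcoplasmic reticulum, had 788 FPKM in control and 710 FPKM in CR, beside 3820 and 3062 FPKM. The locus 121 bp past Hint3 had 483 and 584 FPKM, beside 209 and 255 FPKM. That past Foxn3, a forkhead factor, had 430 and 453 FPKM, beside 759 and 868 FPKM. At these genes the log2 ratios of locus and gene differed by less than 0.2. The locus 94 bp past Spopl was an exception, with 380 and 394 FPKM where the gene had 421 and 115 FPKM. So was the one 245 bp past Zw10, a kinetochore protein, with 846 and 1287 FPKM where the gene had 308 and 183 FPKM.

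Asb18, which encodes an ankyrin repeat protein with a SOCS box, showed a row of 4 downstream loci. The gene had 213 FPKM in control and 467 FPKM in CR. At 128 bp the locus had 106 and 199 FPKM, at 1251 bp 44.8 and 67.1 FPKM, at 3679 bp 23.4 and 42.6 FPKM, and at 6204 bp 0 and 22.4 FPKM. Among the 3 nearest loci the level fell with distance in both libraries and each was higher in CR, while the fourth is listed at 0 in control.

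Zbtb20, a zinc finger repressor, had 6 downstream loci, most of them lower in CR like the gene but by less. The gene had 135 FPKM in control and 28.4 FPKM in CR (-2.22), while the 5 loci above 0 in both libraries had log2 ratios of -0.69, -0.40, -0.31, -0.16 and 0.83, and the sixth had 36.4 and 0 FPKM. At Spag9 the gene had 2046 and 1531 FPKM (-0.42), and its flanking loci had from 7.08 to 146 FPKM in control. The upstream locus 177 bp away had 51.4 and 16.0 FPKM (-1.63), and the minus- and plus-strand loci past its end overlap each other.

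The most abundant flanking loci were short and lay far above their neighbours. The highest was the locus of 177 bp at chr6:49186444-49186620, 7300 bp past Tra2a, a splicing regulator, with 190823 FPKM in control and 127528 FPKM in CR (-0.58), where Tra2a had 230 and 314 FPKM. The next was a locus of 66 bp at chr6:145881484-145881549, 1106 bp before Sspn, sarcospan, with 51764 and 65915 FPKM (0.35), where Sspn had 221 and 222 FPKM. Both spans are shorter than the fragments of about 200 nt.

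A pair of loci past Slc25a38, a mitochondrial glycine carrier, shows the scatter among such short spans. The locus of 67 bp had 6801 FPKM in control and 18167 FPKM in CR (1.42), and the locus of 70 bp had 8401 and 7707 FPKM (-0.12), while the gene had 67.1 and 61.6 FPKM. The locus of 65 bp before Myom3, an M-band protein, had 16802 FPKM in control and 0 in CR, and one of 71 bp before the merged Gm12839 and Cyp4b1 had 0 and 3067 FPKM. The next highest at 0 in CR lay before Zdhhc14 (411 FPKM in control) and Ddx27 (219 FPKM), and the next highest at 0 in control before Daglb (426 FPKM in CR) and Hbs1l (399 FPKM). The other abundant loci lay beside Sppl3, 4732471D19Rik, Abcf2, Ptbp2 and Gm2a.

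Among loci averaging 300 FPKM or more with neither library at 0, the 8 highest ratios, which include the locus of 67 bp past Slc25a38, were not matched by the gene in most cases. The locus past Stard8 had 155 FPKM in control and 603 FPKM in CR (1.95), beside 178 and 234 FPKM. The locus past Phospho2, a phosphatase gene, had 584 and 1410 FPKM (1.27), beside 356 and 192 FPKM. The locus before Ecsit, a complex I assembly factor, had 2671 and 5398 FPKM (1.01), beside 660 and 621 FPKM. Loci at Ccdc32, Pcolce, Prdm9 and Zfp408 had log2 ratios of 1.06, 1.06, 1.04 and 0.95, beside 0.84, -0.02, 1.07 and -0.72 for the genes. The loci were picked by their own ratio and the genes were not. A smaller ratio at the gene is therefore no result on how closely locus and gene are tied.

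The lowest ratio in this class was at the locus before Psmd11, a proteasome lid subunit, with 712 FPKM in control and 264 FPKM in CR (-1.43), beside 1429 and 1747 FPKM. The locus past Tmco1, a calcium channel of the endoplasmic reticulum, had 979 and 489 FPKM (-0.999), beside 262 and 337 FPKM. Further loci were at Zfp420 (-0.80), Mir715 (-0.75), Zfp236 (-0.74), 2310035C23Rik (-0.45) and Col19a1 (-0.44). Only for Mir715, Zfp236 and 2310035C23Rik did the neighbour have a log2 ratio below 0, while Col19a1 was at 0 in CR. The loci with the lowest ratios were likewise picked by their own ratio.

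Of 34 pairs with locus and gene both at 300 FPKM or more, 25 had ratios within 2-fold of each other. Before Cfd, adipsin, a complement protease made by fat cells, the locus at chr10:79351412-79351761 had 3219 FPKM in control and 5085 FPKM in CR (0.66), beside 389 and 2275 FPKM for Cfd (2.54). The 6 white adipocyte markers summed to 3533 FPKM in control and 16183 FPKM in CR, with none at 0, and all 3 brown adipocyte markers were at 0 in control and summed to 306 FPKM in CR. Their part in the values at Cfd was not tested. At Jup, plakoglobin, the locus had 3159 and 5306 FPKM, beside 1131 and 388 FPKM. At Ces2c, a carboxylesterase, it had 673 and 571 FPKM, beside 705 and 128 FPKM. The loci named here are, among the 34 pairs, the 6 most above and the 6 most below their gene's ratio. Their distance from the gene's ratio therefore follows from that choice. With Jup and Ces2c, the loci at Pcbp1, Abcf2, Ecsit and Cdnf make up those above. With Cfd, those at Psmd11, Cd200, Dpy30, Qser1 and Rpl37 make up those below.

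Of 231 genes in 12 lists on muscle fibres, metabolism, growth and stress, 30 (13.0%) had 39 flanking loci, beside 1073 of all 10782 named loci (9.95%). Some of the 231 genes have no locus in the table and so could have no flanking locus, so these shares are not on an equal footing. Beside fast sarcomere genes were 9 loci at 5 genes, of which 6 were at 0 in CR and 1 in control. Over all flanking loci 36.1% were at 0 in CR, and for spans of 401 to 600 bp 55.1%, so counts at 0 in lists of this size show nothing particular to a list. All 4 loci at Tpm1, tropomyosin, were at 0 in CR, with 16.8 to 80.5 FPKM in control, while the gene had 70436 and 103852 FPKM. The locus 101 bp past Pvalb, parvalbumin, had 50.4 and 99.7 FPKM (0.97), beside 20495 and 29963 FPKM (0.55). The median level of the 9 loci was 30.3 FPKM, the same as over all flanking loci, where the neighbours of the 9 had a median of 87144 FPKM.

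Beside muscle regulators were 6 loci at 4 genes, 1 at 0 in each library and 4 above 0 in both, of which 1 was at least 2-fold higher. The locus 177 bp past Myf6, the regulator MRF4, had 40.7 FPKM in control and 34.5 FPKM in CR (-0.23), where the gene had 1824 and 563 FPKM (-1.69). The minus-strand locus 414 bp before Mef2c, a muscle transcription factor, had 25.2 and 52.0 FPKM (1.02), beside 2394 and 2197 FPKM.

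Beside denervation genes were 4 loci at 3 genes. Apart from Hdac4, a locus past Musk, the receptor kinase of the neuromuscular junction, had 133 and 102 FPKM (-0.38), beside 930 and 647 FPKM (-0.52), a second was at 44.1 and 0 FPKM, and the one before Chrnb1, an acetylcholine receptor subunit, had 0 and 29.3 FPKM. The pair of loci past Slc25a1, the mitochondrial citrate carrier of lipogenesis, was at 0 in control and at 30.6 and 22.2 FPKM in CR, where the gene had 52.2 and 812 FPKM. The locus before Aldoa, muscle aldolase, had 32.6 and 73.6 FPKM (1.15), beside 121265 and 131425 FPKM, and the one past Phka1, a phosphorylase kinase subunit, had 21.7 and 10.4 FPKM (-0.999), beside 2017 and 1465 FPKM.

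The 3 loci beside oxidative phosphorylation genes (Atp5g1, Cox5b and Ndufb8) and the 2 beside heat shock and stress genes (Hspa8 and Sqstm1) were at 0 in CR, as were 4 of 5 beside clock and immediate early genes, beside the 36.1% of all flanking loci at 0 there. The fifth, 245 bp past Clock, had 22.2 FPKM in control and 39.6 FPKM in CR. Of 3 loci beside ribosome and translation genes, 2 were at 0 in control, and the one past Rpl37 had 3594 and 4182 FPKM, beside 813 and 1651 FPKM. The single loci past Lox, lysyl oxidase, with 37.1 and 26.9 FPKM, and Pln, phospholamban, with 145 and 169 FPKM, stood beside genes with 323 and 129 FPKM and with 29.99 and 33.1 FPKM.

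Loci beside miRNA genes numbered 23, at 13 neighbours. The locus 133 bp past Mir133b, whose mature miRNA is printed above, had 78.0 FPKM in control and 39.0 FPKM in CR (-0.98), beside 111 and 95.3 FPKM at the Mir133b locus. Past Mir30c-2 a locus 269 bp away had 70.8 and 0 FPKM and one 900 bp away 55.3 and 83.7 FPKM, with 57.7 and 0 FPKM at the Mir30c-2 locus. The locus past Mir365-2 had 45.6 and 67.1 FPKM, beside 34.8 and 35.1 FPKM.

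Mir1-1, a muscle miRNA gene, had 6 flanking loci. The 5 downstream ones had 15.0 to 49.7 FPKM in control and 0 in CR, while the minus-strand upstream locus had 30.3 and 110 FPKM (1.83) and the Mir1-1 locus 599 and 386 FPKM (-0.63). The upstream locus was higher in CR and the neighbour lower. At Mir568 all 3 upstream loci were lower in CR, with 300 and 243 FPKM, 162 and 117 FPKM, and 166 and 85.0 FPKM, beside 249 and 195 FPKM. Here locus and neighbour went the same way. The farthest of these loci begins at chr16:43629587, just beyond the last of the loci past Zbtb20, which ends at 43629087. Whether the rows at Zbtb20 and Mir568 belong together was not tested.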

How the data were processed

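Poly(A) RNA of thigh muscle was sequenced in 1 control and 1 CR library, grouped by the diet in the labels. The authors aligned and assembled reads on mm9, naming TopHat 1.2.0, Cufflinks and Cuffdiff in the submitters' processing notes, and further versions and options are not given. Each deposited value is an FPKM of a locus, per the file headers. They appear to have had 1 added: for control, 59 of 68 entries from 10 to 11 carry more than 6 digits and 0 of 73 from 11 to 12 do. So 1 was subtracted, an inference that the sources used here do not state. Depth per library is unknown.

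Distances are the bases between locus intervals in the table's mm9 coordinates, and the side follows the neighbour's strand. Log2 ratios used a pseudocount of 1 FPKM and a minimum mean of 1 FPKM. "Past 2-fold" is a description, as 1 library per group allows no test. Calculations used Python 3.11.15, numpy 2.4.6, pandas 2.3.3 and matplotlib 3.10.9, and were tested on simulated data. Gene lengths came from GENCODE vM21 by symbol, older symbols through RefSeq names. Sequences came from RefSeq tables. The mm9 genome was not used here, so sequences of the flanking loci are not printed.

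The members and gene lists were chosen with earlier results of these data known. The rule for naming loci takes the 10 most abundant, the 8 highest and 8 lowest ratios at a mean of at least 300 FPKM, the 6 pairs most above and the 6 most below their neighbour at that level, the most abundant locus of each list, and the 3 highest loci at 0 in the other library, in each direction. Loci named because both members of a pair were past 2-fold, because the neighbour is a miRNA or has many flanking loci, because the locus lies within 1000 bp downstream at 300 FPKM or more, and the other loci of the lists, were added after their values were seen. So was the motif TGACGT. Of the loci that the rule takes, 1 is not reported here. Alternatives covered the pseudocount, filters, centring, distance limits, merged neighbours, zeros and summing per neighbour.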

Additional observations from a re-analysis of the deposited data

How the results depend on the processing

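Counts of loci past 2-fold depended on the loci listed at 0. With loci above 0 in both libraries, 219 higher and 611 lower became 82 and 33. They became 29 and 8 at a mean of at least 100 FPKM and 93 and 281 within 1000 bp, and, in alternatives chosen after seeing the data, 51 and 86 at spans of at least 1000 bp, 60 and 195 downstream within 1000 bp, and 8 and 2 at a mean of at least 300 FPKM. Fewer loci enter each of these. The median log2 ratio of -0.24 was -0.15 at a mean of at least 10 FPKM and turned positive at 100 FPKM (0.21), above 0 in both (0.17), at spans of at least 1000 bp (0.0017) and at 300 FPKM (0.32). The share within 2-fold of the neighbour, 73.6%, was 76.5% with a pseudocount of 5, 78.0% within 1000 bp, 80.7% downstream within 1000 bp and 60.2% at 300 FPKM. The correlation of 0.15 was 0.29 downstream within 1000 bp. The 15 same-direction pairs became 5 at 100 FPKM, 8 within 1000 bp, 7 at long spans, 7 downstream within 1000 bp and 1 at 300 FPKM. Of 156 values for 52 named loci, 3 changed side of 2-fold, at Tmco1 and 3110057O12Rik. No paired analysis was possible because each group has 1 library, and for the same reason no library could be left out. Depth is unknown, so low values cannot be given an interval.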
